A study of Drosophila melanogaster with 9 samples.

Results

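Transcripts of 6 lysosomal genes were followed in the fat body of Drosophila melanogaster. They were the proteases cathD and CtsL1 and the membrane proteins Lamp1, spin, Cln3 and Npc1a. The genes were taken from a fixed list by symbol, and all 6 were among the 10242 genes of the deposited tables. Messenger RNA had been sequenced from 9 libraries of fat bodies, each from 5 animals, in 3 groups of 3. All 9 shared the labelled egg temperature (21 °C), egg time (21 h) and rearing temperature (25 °C). The groups were white prepupae titled LacZ, white prepupae titled mitf, and larvae titled e3IL with LacZ, labelled as instar 3. In every group Lsp2-GAL4, a driver active in the late larval fat body, was combined with a UAS transgene. The larvae carried UAS-LacZ/+; Lsp2-GAL4/+, and LacZ is a bacterial enzyme used as a control. The genotype label gives UAS-Mitf/+; Lsp2-GAL4/+ to all 6 prepupa samples, although 3 of them are titled LacZ. Mitf encodes the single MiT/TFE family factor of the fly, and relatives of it in mammals, such as TFEB, switch on genes of lysosomes. The column names inside the tables give mitf to the libraries titled LacZ, and LacZ to those titled mitf. Transcripts of Mitf stood at 35204, 68535 and 45647 in prepupae titled LacZ, at 346.9, 370.4 and 407.1 in prepupae titled mitf, and at 378.2, 384.9 and 410.7 in larvae. The prepupae titled mitf thus had the lower Mitf level of the prepupa groups, at the level of larvae, against their title. Every direction between prepupa groups below is by title. Prepupae titled LacZ differed from larvae in both stage and Mitf level, which cannot be told apart in that comparison. The labels do not say whether Lsp2-GAL4 was already active in the larvae, nor whether replicates came from separate crosses.

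Lysosomes break down material that reaches them by endocytosis or autophagy. Cathepsins cut proteins in their lumen, and the limiting membrane holds glycoproteins that shield it and carriers that pass the products out. The larval fat body builds up autophagy and lysosomes as metamorphosis begins, and its cells later digest their own stores. The question put to the data was how these 6 genes stood before and at the white prepupa stage, and between the prepupa groups of the Mitf overexpression experiment.

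Levels are normalised read counts per gene as deposited, and totals per library were 17195757 to 18187221 in prepupae titled LacZ, 23607147 to 24354238 in prepupae titled mitf and 22604438 to 27178650 in larvae. Log2 values of replicates correlated at 0.975 to 0.987 across genes (Pearson). The 10 fat body markers together took 6.57% to 8.75% of each library titled LacZ and 42.7% to 44.2% of each titled mitf. In each larval library they took 34.8% to 47.4%. The similar sums of prepupae titled mitf and larvae came from different genes. Fbp1 averaged 26.6% of libraries titled mitf and 0.0275% of larval libraries, and Lsp1beta 1.08% and 14.9%. Against larvae, prepupae titled mitf had 6 of these markers lower and 3 higher. Of midgut markers 11 of 12 were measured, and their summed level was 5616 to 8672 in prepupae titled LacZ, 8.71 to 19.6 in prepupae titled mitf and 31.9 to 47.7 in larvae. Listed at 0 in every library titled mitf were 6 midgut markers, among them deltaTry and betaTry, and in every larval library 1, alphaTry. Malpighian tubule markers, 11 of 12 measured, summed to 44913 to 48099 in prepupae titled LacZ and 4446 to 5488 in larvae. In prepupae titled mitf they summed to 3422 to 3827, and CapaR was at 0 in every library. Irk3 alone averaged 23696 in prepupae titled LacZ, 0.677 in prepupae titled mitf and 39.7 in larvae. Alp4 averaged 1287 in prepupae titled LacZ, 19.1 in prepupae titled mitf and 2508 in larvae. Against larvae, 5 of the 11 rose in prepupae titled LacZ and 1, Alp4, fell. The 10 muscle markers summed to 5170 to 6080 in prepupae titled LacZ, 396 to 591 in prepupae titled mitf and 466 to 1148 in larvae. Most of that sum in prepupae was sls, which averaged 5455 in prepupae titled LacZ, 424 in prepupae titled mitf and 96.0 in larvae. Without regard to level, 7 of the 10 muscle markers were lower and 1 higher in prepupae titled LacZ against larvae (median log2 difference -2.60), and 4 were higher and 0 lower against prepupae titled mitf. The 9 measured hemocyte markers, several of which the fat body also expresses, summed to 14551 to 23222 in prepupae titled LacZ, 15002 to 17104 in prepupae titled mitf and 130441 to 211755 in larvae. Most of the larval sum was Col4a1, which averaged 13118 in prepupae titled LacZ, 7789 in prepupae titled mitf and 165129 in larvae. By count, prepupae titled LacZ had 6 of the 9 hemocyte markers higher and 2 lower than larvae, prepupae titled mitf had 4 higher and 2 lower than larvae, and between the prepupa groups 1 was higher and 1 lower in those titled LacZ. None of the 10 salivary gland markers was analysed here. Between the prepupa groups 8 of 10 fat body markers were lower and 1 higher in prepupae titled LacZ, while 9 of 11 midgut and 8 of 11 Malpighian tubule markers were higher and 0 lower. Markers counted as changed here had an adjusted p under 0.05 in the test described below. The share of all tested genes called between the prepupa groups was 72.7%, made up of 41.1% upward and 31.6% downward. With larvae as reference these shares were 46.3% and 32.2% for prepupae titled LacZ, and 34.8% and 31.7% for those titled mitf. The fat body, midgut and Malpighian tubule lists moved with the prepupa group beyond such shares, but the muscle and hemocyte lists did not. The part of any list in the results below was not tested. In such bulk samples fewer cells of a type and less RNA per cell cannot be told apart.

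All 6 genes differed between the prepupa groups in limma's moderated test, 3 higher and 3 lower in prepupae titled LacZ, where 72.7% of the 10139 tested genes were called at an adjusted p under 0.05. Higher calls made up 41.1% and lower calls 31.6% of tested genes, or 4166 and 3200 genes, and with library totals as the scaling 4950 and 2335 genes. In none of the 6 did the prepupa groups overlap, as in 76.1% of tested genes. Both counts lie close to what most genes did, and a split of calls between the directions was also general. The results are in the sizes for each gene. Cln3 was among the tested genes only through its libraries titled LacZ, where it is high. CtsL1, spin and Cln3 were higher in prepupae titled LacZ, and cathD, Lamp1 and Npc1a were lower. The split ran through each class, since 1 protease and 2 membrane proteins stood on the higher side and 1 protease and 2 membrane proteins on the lower.

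**Figure D1:**
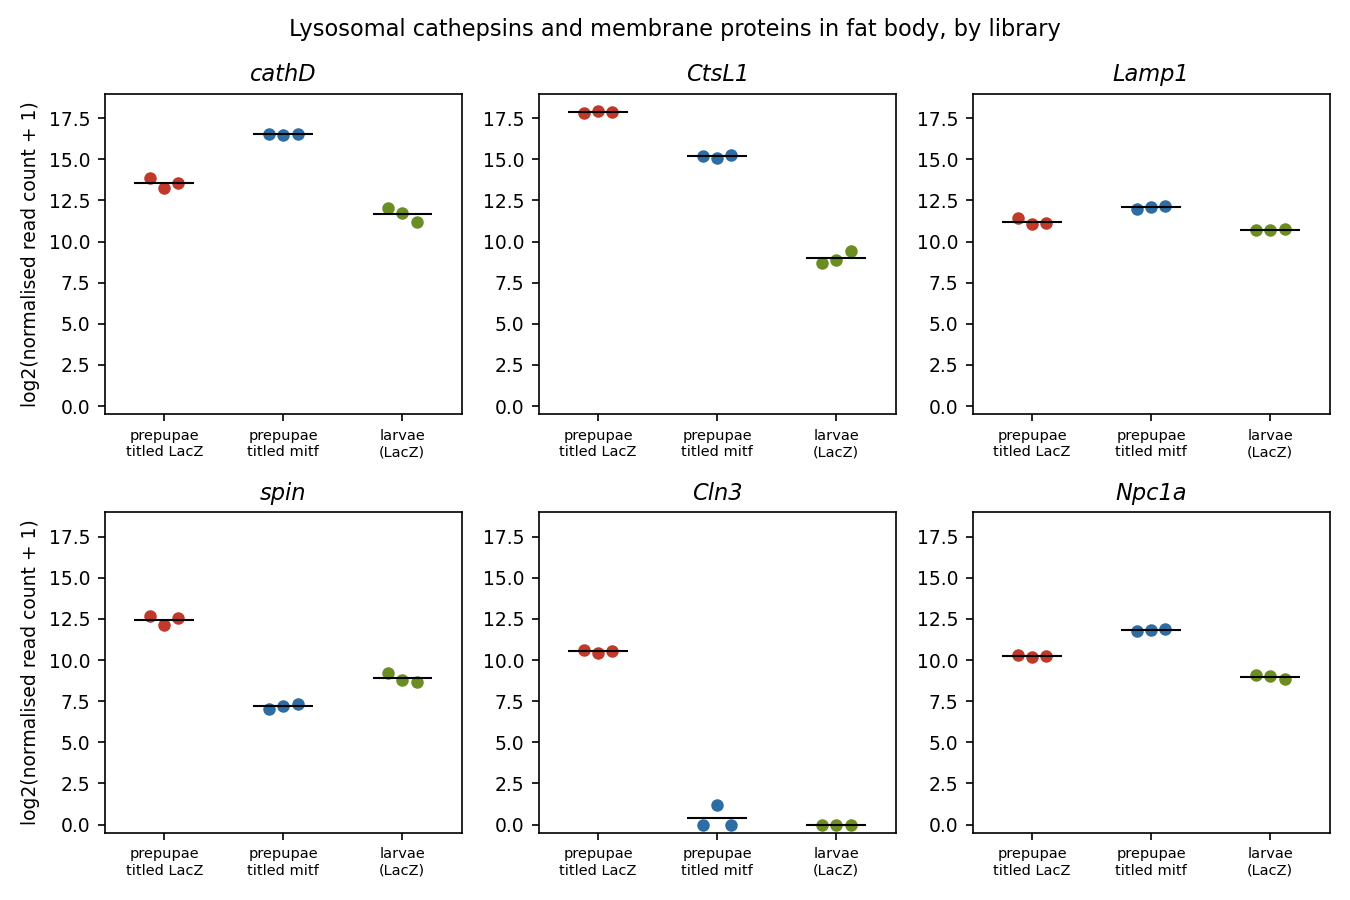
Log2(normalised read count + 1) of the 6 genes, with a point for each library and a line at the mean of 3 libraries, for prepupae titled LacZ (red), prepupae titled mitf (blue) and larvae (green). The red points lie above the blue for CtsL1, spin and Cln3 and below them for cathD, Lamp1 and Npc1a, and no red point overlaps a blue one.

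cathD (FBgn0029093, chromosome 2R, 7815339 to 7823569, minus strand, BDGP6, 3 annotated transcripts) is the fly homologue of cathepsin D, an aspartic protease of the lysosomal lumen. Its normalised read counts were 14884, 9664 and 11972 in the libraries titled LacZ, 94775, 93038 and 96560 in those titled mitf, and 4168, 3463 and 2320 in larvae. The 3 groups did not overlap, and the prepupae titled mitf were far the highest. The libraries titled LacZ had a mean of 12173 ± 2616, against 94791 ± 1761 for those titled mitf (SD, n = 3 each), and the log2 difference was -2.98 ± 0.22 (SE, adjusted p = 8.84e-07, 95% interval -3.47 to -2.49). Against larvae, cathD was higher by 1.89 ± 0.22 in prepupae titled LacZ (adjusted p = 2.11e-05) and by 4.88 ± 0.22 in prepupae titled mitf (adjusted p = 3.57e-08). The end of cathD overlaps puml on the opposite strand. The kit marks strand but the strand setting of the counting is not given in the sources used here, and puml averaged 1134 ± 788 in prepupae titled LacZ, 334 ± 50.7 in prepupae titled mitf and 605 ± 55.4 in larvae, below cathD in each.

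CtsL1 (FBgn0013770, 2R, 13960675 to 13967981, plus strand, 4 transcripts) encodes the fly cathepsin L, a cysteine protease of the papain family. The 3 libraries of prepupae titled LacZ held 228271, 251256 and 238935, those titled mitf 37823, 33948 and 39555, and the larvae 419.7, 474.8 and 698.3. Again no groups overlapped, but here the prepupae titled LacZ were highest. CtsL1 took 1.35% ± 0.098 of all normalised reads in prepupae titled LacZ, 0.155% ± 0.00974 in prepupae titled mitf and 0.00217% ± 0.000812 in larvae. The log2 difference between the prepupa groups was 2.69 ± 0.17 (adjusted p = 3.83e-07, 95% interval 2.30 to 3.08). Against larvae it was 8.85 ± 0.17 in prepupae titled LacZ (adjusted p = 2.07e-10) and 6.16 ± 0.17 in prepupae titled mitf (adjusted p = 2.19e-09). CG42806 overlaps CtsL1 on the same strand, so reads of the shared stretch could be split between them. CG42806 averaged 5427 ± 487 in prepupae titled LacZ, 136 ± 21.6 in prepupae titled mitf and 475 ± 81.9 in larvae. The larval level was close to that of CtsL1 itself.

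The balance of the proteases was turned round between the prepupa groups. Per kilobase of the longest annotated transcript, CtsL1 stood at 16.5, 27.9 and 21.4 times the level of cathD in the libraries titled LacZ, at 0.428, 0.392 and 0.440 times in those titled mitf, and at 0.108, 0.147 and 0.323 times in larvae. By the same measure CtsL1 ranked 4 among the 10189 genes with an annotated length in prepupae titled LacZ, 58 in prepupae titled mitf and 2248 in larvae. cathD ranked 236 in prepupae titled LacZ, 20 in prepupae titled mitf and 666 in larvae. The ranks depend on the length used. Per kilobase of all annotated exons, chosen after seeing the data, CtsL1 ranked 8 in prepupae titled LacZ, 81 in prepupae titled mitf and 2524 in larvae. By that length cathD ranked 229, 20 and 651 in the same groups. The 8 other measured genes of a chosen set of cathepsins and cathepsin-like genes put these values in context. The set holds proteases of different families. Summed over the 10 genes of the set, the level per kilobase was 163546 ± 2667 in prepupae titled LacZ, 91430 ± 2687 in prepupae titled mitf and 7303 ± 595 in larvae (SD, n = 3 each). A different gene led each sum. CtsL1 made up 88.1% ± 2.91 of it in prepupae titled LacZ, 24.4% ± 1.19 in prepupae titled mitf and 4.46% ± 1.60 in larvae. cathD made up 4.18% ± 0.967 in prepupae titled LacZ, 58.1% ± 0.668 in prepupae titled mitf and 25.2% ± 5.24 in larvae. CtsK1, a papain-family gene also known as 26-29-p, made up 0.579% ± 0.0514 in prepupae titled LacZ, 3.45% ± 0.337 in prepupae titled mitf and 58.3% ± 3.42 in larvae.

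**Figure D2:**
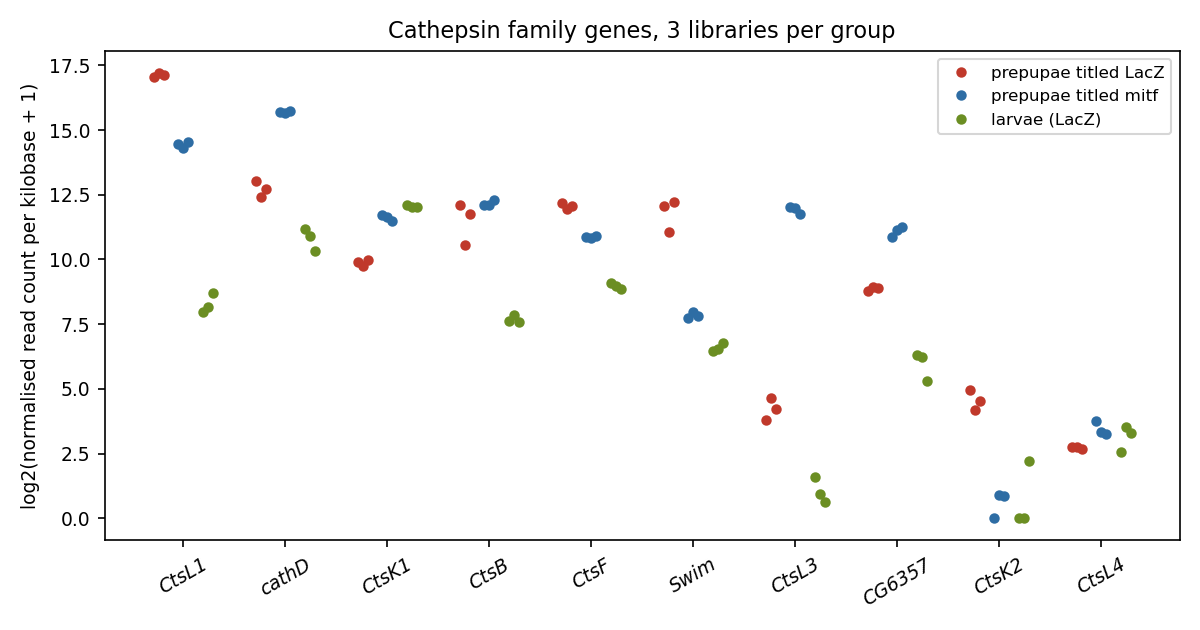
Log2(normalised read count per kilobase + 1) of the set of 10 measured cathepsin and cathepsin-like genes, 1 point per library, for prepupae titled LacZ (red), prepupae titled mitf (blue) and larvae (green). CtsL1 led in prepupae titled LacZ with 88.1% of the set's summed level, cathD in prepupae titled mitf with 58.1%, and CtsK1 in larvae with 58.3%.

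Lamp1 (FBgn0032949, 2L, 21573389 to 21577103, plus strand, 1 transcript) encodes a glycoprotein of the lysosome's limiting membrane, widely used as a lysosome marker. It read 2719, 2138 and 2253 in the libraries titled LacZ, 4071, 4401 and 4603 in those titled mitf and 1684, 1667 and 1728 in larvae. The groups were in the same order as for cathD and did not overlap, but they lay within a much narrower range. The log2 difference between the prepupa groups was -0.88 ± 0.10 (adjusted p = 2.78e-05), and -0.45 with library totals. Against larvae Lamp1 was higher by 0.48 ± 0.10 in prepupae titled LacZ (adjusted p = 0.00172). That rise was close to the median of all genes in the comparison, 0.50, and was no longer called with trimmed mean scaling (0.19, adjusted p = 0.0901). The prepupae titled mitf showed a rise of 1.36 ± 0.10 against larvae (adjusted p = 1.33e-06).

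spin (spinster, FBgn0086676, 2R, 16124981 to 16138238, plus strand, 5 transcripts) encodes a multipass carrier of late endosomes and lysosomes, whose loss in flies leaves enlarged lysosomes. It read 6479, 4440 and 6005 in the libraries titled LacZ, 130.6, 144.9 and 162.0 in those titled mitf and 593.5, 444.5 and 398.1 in larvae. The prepupae titled LacZ were far the highest, and no groups overlapped. Of the 6 genes spin alone passed the test in opposite directions against larvae in the 2 prepupa groups. Against larvae it rose by 3.56 ± 0.18 in prepupae titled LacZ (adjusted p = 5.07e-08) and fell in those titled mitf (-1.69 ± 0.18, adjusted p = 1.75e-05). The difference between the prepupa groups was 5.25 ± 0.18 (adjusted p = 5.06e-09, 95% interval 4.84 to 5.66), a 38.7-fold ratio of means. In levels per kilobase, spin stood at 1.11, 0.969 and 1.24 times Lamp1 in the libraries titled LacZ, at 0.0150, 0.0154 and 0.0164 times in those titled mitf and at 0.164, 0.124 and 0.107 times in larvae.

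Cln3 (FBgn0036756, 3L, 17809231 to 17814119, minus strand, 2 transcripts) encodes a multipass lysosomal protein whose human homologue is mutated in juvenile Batten disease. It read 1538, 1392 and 1510 in prepupae titled LacZ. The libraries titled mitf listed it at 0, 1.30 and 0, and the larval libraries at 0 in all 3. The share of all genes listed at 0 also differed by group, at 1.97% to 2.47% per library titled LacZ, 9.77% to 10.8% per library titled mitf and 11.5% to 15.1% per larval library, and its part in the Cln3 values was not tested. All 83 genes with an RpL or RpS symbol, which encode ribosomal proteins, were above 0 in every library. Their levels were not set beside that of Cln3, so this does not bear on its listed zeros. No gene of the annotation overlaps Cln3. The fitted log2 difference of 10.13 ± 0.35 between the prepupa groups (adjusted p = 5.45e-09) depends on the pseudocount of 1, and was 12.58 with 0.1 and 8.10 with 5. Cln3 reached 1 in 3 libraries, the filter for testing, only through those titled LacZ, where it is high. Its p-values for that group therefore add nothing to the listed values. No fold is given for levels listed at 0. No difference of Cln3 was detectable in prepupae titled mitf against larvae (0.40 ± 0.35, 95% interval -0.40 to 1.20, adjusted p = 0.348).

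Npc1a (FBgn0024320, 2L, 10213812 to 10221216, minus strand, 7 transcripts) encodes a homologue of NPC1, which passes sterol out of the lysosome, and which flies need for making ecdysteroids from dietary sterol. It read 1277, 1149 and 1239 in the libraries titled LacZ, 3509, 3587 and 3811 in those titled mitf and 536.1, 523.3 and 456.7 in larvae. The order of the groups was that of cathD and Lamp1, with no overlap. The log2 difference between the prepupa groups was -1.57 ± 0.09 (adjusted p = 1.75e-07, 95% interval -1.78 to -1.37), and -1.14 with library totals, a smaller size in the same direction. Against larvae Npc1a rose by 1.27 ± 0.09 in prepupae titled LacZ (adjusted p = 6.00e-07), and by 2.85 ± 0.09 in prepupae titled mitf (adjusted p = 4.10e-09).

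Both prepupa groups were set against the same 3 larval libraries. Mitf averaged 49795 in prepupae titled LacZ, 375 in those titled mitf and 391 in larvae. Stage and Mitf level thus cannot be told apart in prepupae titled LacZ against larvae. In prepupae titled LacZ all 6 genes rose and 0 fell, where 78.5% of tested genes were called, 46.3% as higher and 32.2% as lower. For none of the 6 did these groups overlap, as for 79.9% of tested genes. Cln3 passed the filter for testing only through the libraries titled LacZ, where it is high. Its place in these counts therefore adds nothing to its listed values. Among prepupae titled mitf 4 genes rose, spin fell and Cln3 was not called, where 66.4% of tested genes were called, 34.8% as higher and 31.7% as lower. Groups did not overlap for the 5 called genes, and for 71.1% of tested genes. The median log2 difference of the 6 genes from larvae was 2.73 in prepupae titled LacZ, where all tested genes had 0.50. In prepupae titled mitf it was 2.10, where all tested genes had 0.08. Both medians of the 6 genes include Cln3. CtsL1 moved furthest of the genes with reads in every larval library. Together the 6 genes took 1.43% to 1.57% of each library titled LacZ, 0.572% to 0.594% of each titled mitf and 0.0248% to 0.0272% of each larval library.

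**Figure D3:**
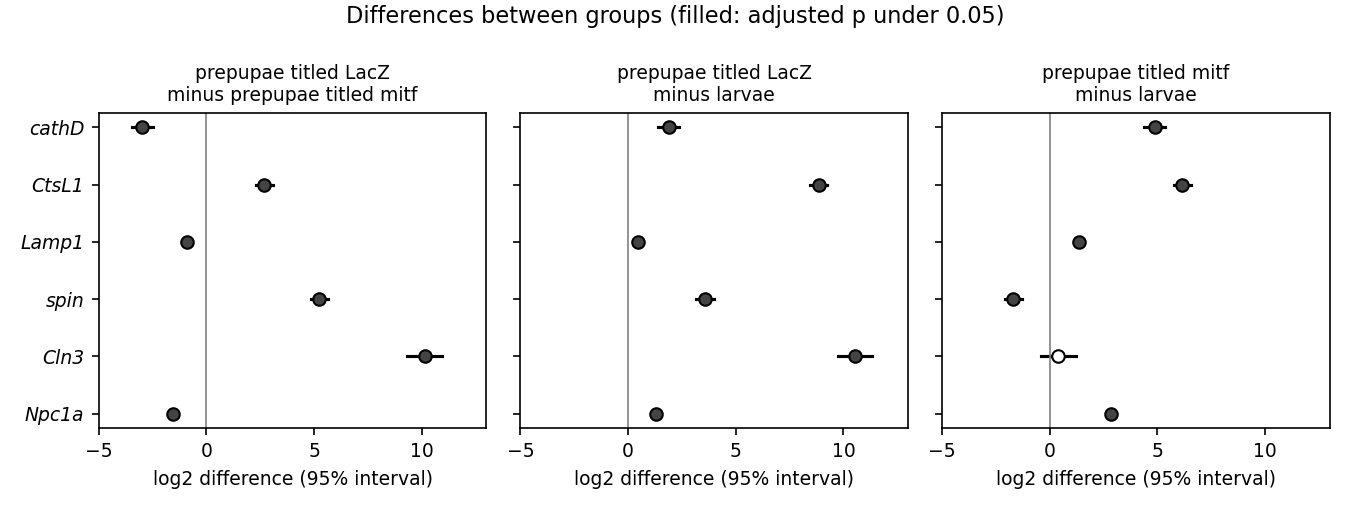
Log2 differences of the 6 genes with 95% intervals from limma in the 3 comparisons of groups, filled where the adjusted p was under 0.05. spin lies at 3.56 in prepupae titled LacZ and at -1.69 in prepupae titled mitf, both against larvae, and the interval of Cln3 in prepupae titled mitf crosses 0.

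Sorted by the order of the groups, the 6 genes fell into 4 patterns. cathD, Lamp1 and Npc1a were highest in prepupae titled mitf, then in prepupae titled LacZ, then in larvae, with no overlap, an order held by 7.47% of tested genes. CtsL1 was highest in prepupae titled LacZ, then in prepupae titled mitf, then in larvae, as were 10.6% of tested genes. spin was highest in prepupae titled LacZ, then in larvae, then in prepupae titled mitf, as were 7.47% of tested genes. Cln3 was highest in prepupae titled LacZ and its other groups overlapped. The fixed rule for like patterns took the 3 genes with the smallest root mean square difference of centred log2 values over the 9 libraries, among 4375 candidates for each gene. Nearest to cathD were Cyp6d5 (0.25), Cyp12d1-p (0.29) and Gbp1 (0.31). Cyp6d5 averaged 1791 in prepupae titled LacZ, 12712 in prepupae titled mitf and 399 in larvae. Nearest to Lamp1 were slpr (0.08), Ras85D (0.10) and pins (0.12), and nearest to Npc1a were mam (0.14), dec (0.16) and sbb (0.20). The genes near spin were eIF2Bepsilon (0.22), Tbc1d8-9 (0.22) and ry (0.27). ry, the xanthine dehydrogenase gene rosy, averaged 7211 in prepupae titled LacZ, 208 in prepupae titled mitf and 607 in larvae. Differences were larger for the genes nearest to CtsL1, Cyp304a1 (0.34), sim (0.52) and topi (0.65). So they were for those nearest to Cln3, Obp19d (0.50), hebe (0.61) and tadr (0.68). Obp19d was at 0 in all 3 libraries of prepupae titled mitf and of larvae and averaged 1129 in prepupae titled LacZ. The measure grows with the range of a profile. Pearson correlations were 0.996 for Cyp304a1 with CtsL1 and 0.995 for Obp19d with Cln3. For the nearest genes of the other members they ran from 0.990 (slpr with Lamp1) to 0.995 (eIF2Bepsilon with spin).

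Other lysosomal proteases were no more uniform than cathD and CtsL1. Of 29 listed genes 13 were measured. In prepupae titled LacZ against those titled mitf 6 were higher, 5 lower and 2 not called, with a median log2 difference of -0.69 (all tested genes 0.22). These counts stand beside 41.1% higher and 31.6% lower among all tested genes. The shares over all tested genes against larvae are 46.3% higher and 32.2% lower for prepupae titled LacZ, and 34.8% and 31.7% for those titled mitf. Swim, a secreted cathepsin-like protein named for binding Wingless, averaged 7661 in libraries titled LacZ, against 468 in those titled mitf (3.95 ± 0.26). CtsK2 (4.33 ± 0.71) and CG31821 (4.13 ± 0.32) were higher too, but averaged only 34.3 and 16.7 in prepupae titled LacZ. CG31821 was listed at 0 in every other library, so it met the filter for testing only through the group where it was high. On the lower side, CtsL3 averaged 25.7 in libraries titled LacZ, against 5532 in those titled mitf (-7.74 ± 0.31). CG9953 (-2.87 ± 0.10) and CG4572 (-2.44 ± 0.10) were lower as well. Prepupae titled LacZ against larvae had 9 that rose and 3 that fell (median 3.10), with Swim at 5.20 ± 0.26, CtsK2 at 4.21 ± 0.71 and CG31821 at 4.13 ± 0.32. The 3 that fell were CtsK1 (-2.17 ± 0.10), CG9953 (-2.08 ± 0.10) and CG4572 (-0.55 ± 0.10, or -0.06 and not called with library totals). For prepupae titled mitf against larvae 7 rose and 1 fell (median 0.79). CtsL3 rose by 11.12 ± 0.31, with a larval mean of only 1.62, CG6357 by 5.15 ± 0.23 and CtsB, the fly cathepsin B, by 4.48 ± 0.32, and CtsK1 fell (-0.43 ± 0.10).

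Among the listed genes for lysosomal membrane proteins and sterol carriers, 20 of 24 were measured. In prepupae titled LacZ against those titled mitf 4 were higher, 10 lower and 6 not called (median -0.29), where 72.7% of all tested genes were called, and library totals made the higher count 8. The sterol carrier Npc2h was higher (5.70 ± 0.44), as was Cln7 (1.61 ± 0.14), the homologue of another human Batten disease gene. The tetraspanin gene Tsp42Ed was also higher (1.39 ± 0.45), a call lost without replicate 1 titled mitf (1.21), where the higher count was 2. Lower were the tetraspanin genes Tsp29Fb (-3.26 ± 0.82) and Tsp42Ej (-2.45 ± 0.40) and the sterol carrier Npc2a (-2.43 ± 0.37), which works with NPC1 in mammals. Npc2a averaged 1336 in prepupae titled LacZ, 6480 in prepupae titled mitf and 1063 in larvae, the same order of means as Npc1a. Against larvae 10 rose and 6 fell in prepupae titled LacZ (median 0.57), beside 46.3% higher and 32.2% lower of all tested genes (median 0.50). In prepupae titled mitf 11 rose and 3 fell (median 1.29), beside 34.8% higher and 31.7% lower of all tested genes (median 0.08). Tsp42Ed, Cln7 and Tsp42Ej had the largest rises in both, by 7.99 ± 0.45, 5.61 ± 0.14 and 4.71 ± 0.40 in prepupae titled LacZ, and by 6.60 ± 0.45, 4.0 ± 0.14 and 7.16 ± 0.40 in prepupae titled mitf. Npc2g, Npc2f and Npc2h had the largest falls in both, and in prepupae titled LacZ stood at -3.77 ± 0.15, -2.99 ± 0.24 and -2.68 ± 0.44. Among prepupae titled mitf Npc2h stood at -8.38 ± 0.44, Npc2f at -2.78 ± 0.24 and Npc2g at -2.37 ± 0.15. These 3 Npc2 genes were thus called lower against larvae where Npc1a was called higher in both groups.

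The 15 listed genes for sorting and lipid enzymes were all measured. In prepupae titled LacZ against those titled mitf 7 were higher, 5 lower and 3 not called (median 0.27), beside the same 72.7% over all tested genes, and library totals made the lower count 3. Lerp, the receptor that carries new enzymes to the lysosome, averaged 337 in prepupae titled LacZ, 50.7 in prepupae titled mitf and 11.7 in larvae (2.73 ± 0.40 between the prepupa groups). CG5280 (4.16 ± 0.37) and the lipase gene Lip1 (4.11 ± 0.39) were higher at means of 17.1 and 17.6 in prepupae titled LacZ, and were listed at 0 in those titled mitf. The lipase gene Lip3 (-2.94 ± 0.44), CG3376 (-1.87 ± 0.14) and Vps35 of the retromer, which returns sorting receptors (-1.02 ± 0.08), were lower. Against larvae 9 rose and 4 fell in prepupae titled LacZ (median 1.16), with Lerp at 4.76 ± 0.40, Vps45 at 3.70 ± 0.16 and CG5280 at 2.85 ± 0.37, and with mag (-2.22 ± 0.36), Lip3 (-2.10 ± 0.44) and Vps35 (-0.73 ± 0.08) lower. Over all tested genes the shares against larvae were 46.3% higher and 32.2% lower for prepupae titled LacZ. They were 34.8% and 31.7% for those titled mitf. Of the 15 listed genes, 8 rose and 4 fell in prepupae titled mitf against larvae (median 0.78). CG3376 rose by 3.85 ± 0.14, Lerp by 2.02 ± 0.40 and Vps45 by 1.5 ± 0.16. Lip1 (-2.60 ± 0.39), mag (-2.49 ± 0.36) and CG5280 (-1.30 ± 0.37) were lower, all listed at 0 in prepupae titled mitf and at means of 5.07 or less in larvae. CG5280 met the filter for testing only through the libraries titled LacZ, and mag only through the larvae. Each was highest in that group, so its calls for that group add nothing to the listed levels. Fitted differences of genes listed at 0 in a group depend on the pseudocount.

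**Figure D4:**
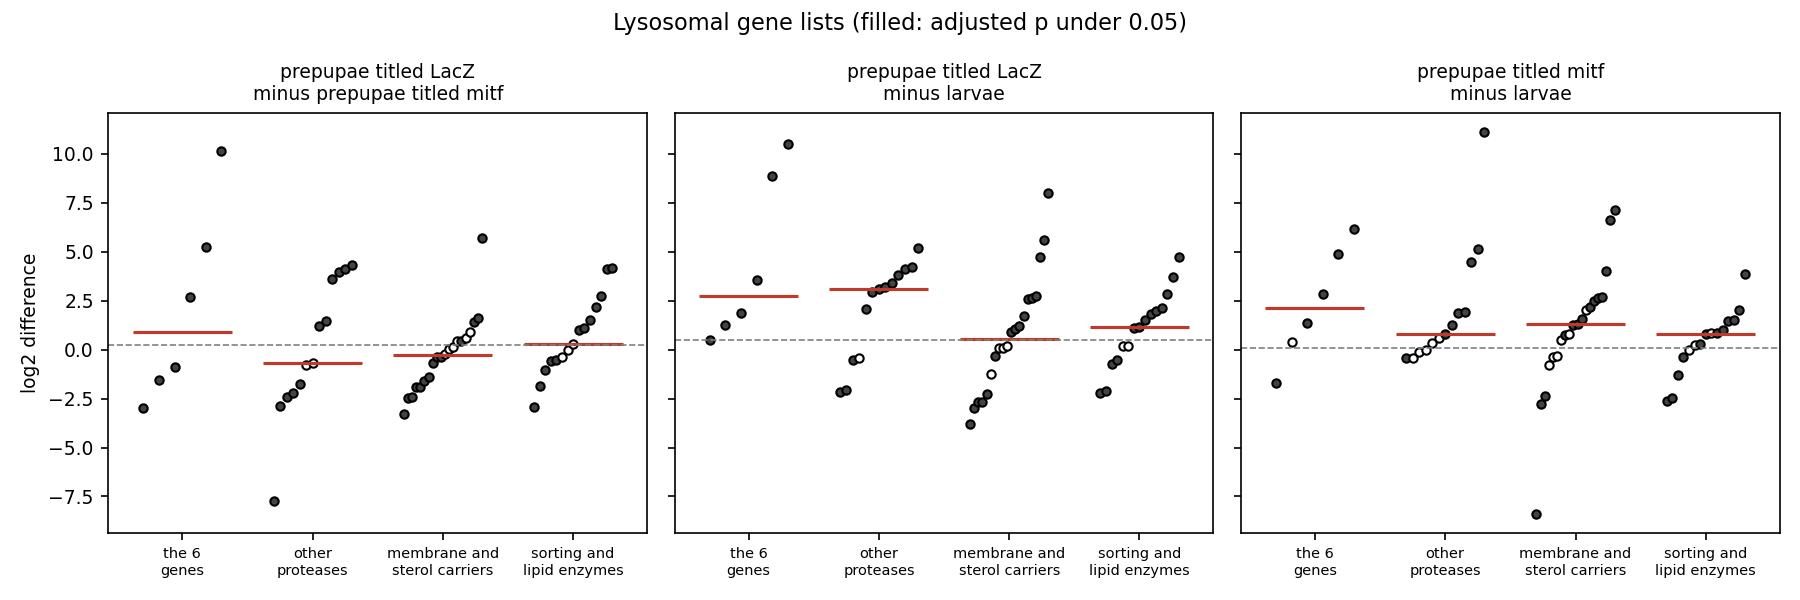
Log2 differences of each measured gene of the 4 lysosomal lists in the 3 comparisons of groups, filled where the adjusted p was under 0.05, with the median of the list (red line) and of all tested genes (dashed). Genes of every list lie on both sides of 0 between the prepupa groups. The 6 genes split into 3 higher and 3 lower there, and their median of 0.90 falls in the gap between Lamp1 (-0.88) and CtsL1 (2.69).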

How the data were processed

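Per the labels' protocols, fat bodies of 5 animals per library were dissected and stranded poly(A) libraries were made, and animals grew at 25 °C. The authors used bcl2fastq, Salmon 1.5.2 and DESeq2 with the build BDGP6, per the submitters' processing notes. Each deposited file holds a normalised signal per gene for 1 library, not counts. The median ratio to the genes' geometric means was 0.9926 in every library, and the number of reads behind a value is not given. Symbols came from FlyBase identifiers (10188 of 10242 genes had one) and positions from an Ensembl annotation of BDGP6. limma 3.58.1 (R 4.3.3), its variance prior following mean level, was fitted to log2(value + 1) of all 9 libraries for the 10139 genes that reached 1 in 3 or more libraries. Adjusted p-values are two-sided, Benjamini-Hochberg over all tested genes, with a threshold of 0.05. Differences between groups carry the SE of the fit, and means the SD. Since the labels name no separate cultures, p-values measure the spread between these samples, which may be technical. On simulated data with known changes the fit was checked first.

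The 6 genes and the gene lists were chosen with earlier results of these data known. All 6 genes were named, with the 3 nearest genes in pattern for each. From each lysosomal list up to 3 called genes each way, by size of difference, were named per comparison. The set of 10 cathepsin and cathepsin-like genes, CtsK1 in it, and the genes overlapping the 6 were chosen after values were seen. Alternatives were the pseudocount, the filter, library totals, trimmed mean scaling (a trimmed mean of log ratios to 1 library), a fit of 2 groups, no trend, the replicate number as a block, and leaving out each library. Levels of different genes were compared per kilobase of the longest annotated transcript.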

Additional observations from a re-analysis of the deposited data

Results flagged for a closer look

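The change from larvae differed between the prepupa groups for each of the 6 genes. Since both changes share the larvae, the test of that difference is the comparison of the prepupa groups, as reported, and the values are log2 differences of prepupae titled LacZ minus prepupae titled mitf. They were -2.98 for cathD, 2.69 for CtsL1, -0.88 for Lamp1, 5.25 for spin, 10.13 for Cln3 and -1.57 for Npc1a. Cln3 was tested only through the libraries titled LacZ, where it is high. Its value depends on the pseudocount, at 8.10 with 5 and 12.58 with 0.1. For spin the 2 changes had opposite signs. In the same comparison 72.7% of all tested genes were called.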

How the results depend on the processing

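Counts of genes were recomputed under 18 alternatives, 9 of which left out 1 library, and differences of single genes under as many of these as tested the gene. Each called difference of the 6 genes kept its direction and call in every alternative, except Lamp1 in prepupae titled LacZ against larvae with trimmed mean scaling (0.19, adjusted p = 0.0901). Cln3 in prepupae titled mitf against larvae was called in none of the 17 alternatives that tested it, and its difference was 0 without replicate 2 titled mitf. The called genes numbered 6609 to 7413 between the prepupa groups (7366 as reported), 7174 to 8002 in prepupae titled LacZ against larvae (7959) and 6363 to 6938 in prepupae titled mitf against larvae (6737). Library totals shifted the median of all genes between the prepupa groups to 0.63 (0.22 as reported) and the split to 4950 higher and 2335 lower genes (4166 and 3200 as reported), and trimmed mean scaling shifted the median to 0.02. Against larvae, library totals gave 5512 higher and 2469 lower genes in prepupae titled LacZ (4699 and 3260 as reported). Of the other lysosomal genes named, CtsB, not called between the prepupa groups as reported, was called lower with trimmed mean scaling (-0.90) and without replicate 1 titled LacZ (-0.999). Tsp29Fb in prepupae titled mitf against larvae was called with a pseudocount of 5 (1.62), the stricter filter (2.03) or without larval replicate 3 (3.09), Npc2a in prepupae titled LacZ against larvae without replicate 2 titled LacZ (0.70), and CG5280 in prepupae titled mitf against larvae was not called with a pseudocount of 5 (-0.39). The sorting genes lower there numbered 2 with the stricter filter or without larval replicate 1 or 2. With the replicate number as a block, 7300, 7907 and 6662 genes were called in the 3 comparisons and no call of the 6 genes changed. Same-numbered samples deviated together at correlations of -0.0653 to 0.0888, and differently numbered ones at -0.132 to 0.102. In 11 of 18 comparisons a sample correlated best with its own number. Whether the numbers mark pairs is not known, and the main fit did not pair the samples. The per-kilobase ratio of CtsL1 to cathD with exonic union length, chosen after seeing the data, was 17.6 in prepupae titled LacZ, 0.338 in prepupae titled mitf and 0.155 in larvae. The reads behind a value are not given, so a 0 for Cln3 is only a listed 0, and no lower limit of its level can be set.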
